A study of Mus musculus with 6 samples.

Results

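Bulk RNA sequencing (RNA-seq) of sorted hematopoietic stem cells (HSCs) was used to describe 9 adhesion G protein–coupled receptors (GPCRs), among them *Adgrg1*, *Adgrg3*, *Adgrg7*, *Adgrd1*, *Adgre5*, *Adgrl1*, *Adgrl2* and *Adgrl4*, out of 26264 genes in the table and out of 30 mouse adhesion GPCRs listed in it. The members were chosen by measured values of the same libraries: *Adgrg1* because it took the most reads, and *Adgrd1* and *Adgrg7* because they were lower in *Irf1-/-* HSCs. Their levels and their differences between genotypes are therefore a description, and whether a member was called in the fit across all genes is stated without weight as a test. The groups were 3 wild-type (WT) C57Bl/6 mice and 3 mice carrying the whole-body B6.129S2-Irf1 tm1Mak/J allele (*Irf1-/-*). All mice were untreated females aged 8 weeks, and each library, numbered 2 to 4 in both genotypes, came from HSCs sorted from the bone marrow of 1 mouse. Because the allele is germ line, the stem cells and their surroundings both carried it, and their contributions cannot be told apart.

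Adhesion GPCRs carry a long extracellular region with adhesion domains, which is joined to the membrane-spanning part through a domain that in many members cuts itself. When the outer fragment is pulled away by a ligand on another cell or in the matrix, a stretch of the remaining receptor acts as its own tethered agonist and signals through G proteins. In the blood system, *Adgrg1* (GPR56) is a widely used surface marker of HSCs, *Adgre5* (CD97) is found on most leukocytes, *Adgrg3* (GPR97) is best known from granulocytes, and *Adgrl4* (ELTD1) is best known from endothelium.

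Between 43138521 and 59658080 reads per library were counted on genes. Values are normalized counts, that is, reads divided by a factor for the depth of each library. *Irf1*, the targeted gene, had 9267, 9524 and 9287 normalized counts in *Irf1-/-* replicates 2, 3 and 4 and 10122, 11119.6 and 12057 in WT replicates 2, 3 and 4. The *Irf1-/-* libraries lay below every WT library, at 84.3% of the WT mean. A total over all exons of the gene does not show which exons the reads came from, so this level did not check the genotypes, and the groups are named by their labels throughout. Of the 13 genes of the HSC list, all were detected, and *Kit*, the stem cell factor receptor and the most abundant of them, ranged from 77902 to 88715. The list also held *Cd48*, whose protein is absent from HSCs as the paper defines them, so its members are not all positive markers of HSCs. By limma 2 of the list, *Fgd5* and *Flt3*, were called higher in *Irf1-/-* HSCs (0.96% over all tested genes), and between 1 and 3 with 1 library left out. An unadjusted p under 0.05 was found for 7 (16.5% over all tested genes). The *Irf1-/-* libraries lay all above the WT libraries for 5 genes and all below for 1 (19.9% over all tested genes in either direction). The gene below was *Ly6a* (log2 fold change −0.43, limma adjusted p = 0.0245, not called). *Procr* was among those above (0.52, limma adjusted p = 0.0112, not called). The summed count of the HSC list was 218010.1, 221884 and 205363 in WT and 217239, 247121 and 221039 in *Irf1-/-* HSCs, with overlap between the groups (exact two-sided permutation test, p = 0.5, where 3 against 3 cannot go below 0.1).

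Some libraries stood apart from others of their genotype. On the first principal component of all tested genes (32.4% of the variance), *Irf1-/-* replicates 2 and 4 and WT replicate 4 scored 37.4, 30.8 and 39.2, whereas *Irf1-/-* replicate 3 and WT replicates 2 and 3 scored −28.8, −36.7 and −41.9, so that this component did not follow genotype. WT replicate 4 also held the most neutrophil and myeloid marker RNA, with a summed count of 9868 against 1062 and 2057 in the other WT libraries and 2067, 1879 and 3173 in *Irf1-/-* HSCs. *Ngp*, a neutrophil granule gene, reached 2535 in WT replicate 4 and lay between 24.8 and 127 elsewhere. The log2 fold changes of the receptors were therefore also computed without each library in turn.

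Over the 17404 genes tested, those whose counts averaged 10 or more, 167 (0.96%) were called higher and 166 (0.954%) were called lower in *Irf1-/-* HSCs, where called means an adjusted p under 0.05 in limma and a log2 fold change beyond 0.58 in either direction. Before adjustment, 2863 genes (16.5%) had a p under 0.05. All of these shares are to be set beside such counts in the lists of genes. All 9 receptors passed the filter on low counts. Among them, 0 were called higher and 2 were called lower, and edgeR and DESeq2 on recovered reads gave the same counts. The *Irf1-/-* and WT libraries did not overlap for 5 of the 9, with 1 higher and 4 lower in *Irf1-/-* HSCs, and for 19.9% of all tested genes. Their median log2 fold change was −0.39, against −0.00 over all tested genes. Since *Adgrg7* and *Adgrd1* were selected on this contrast, nothing is read from these counts.

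**Figure D1:**
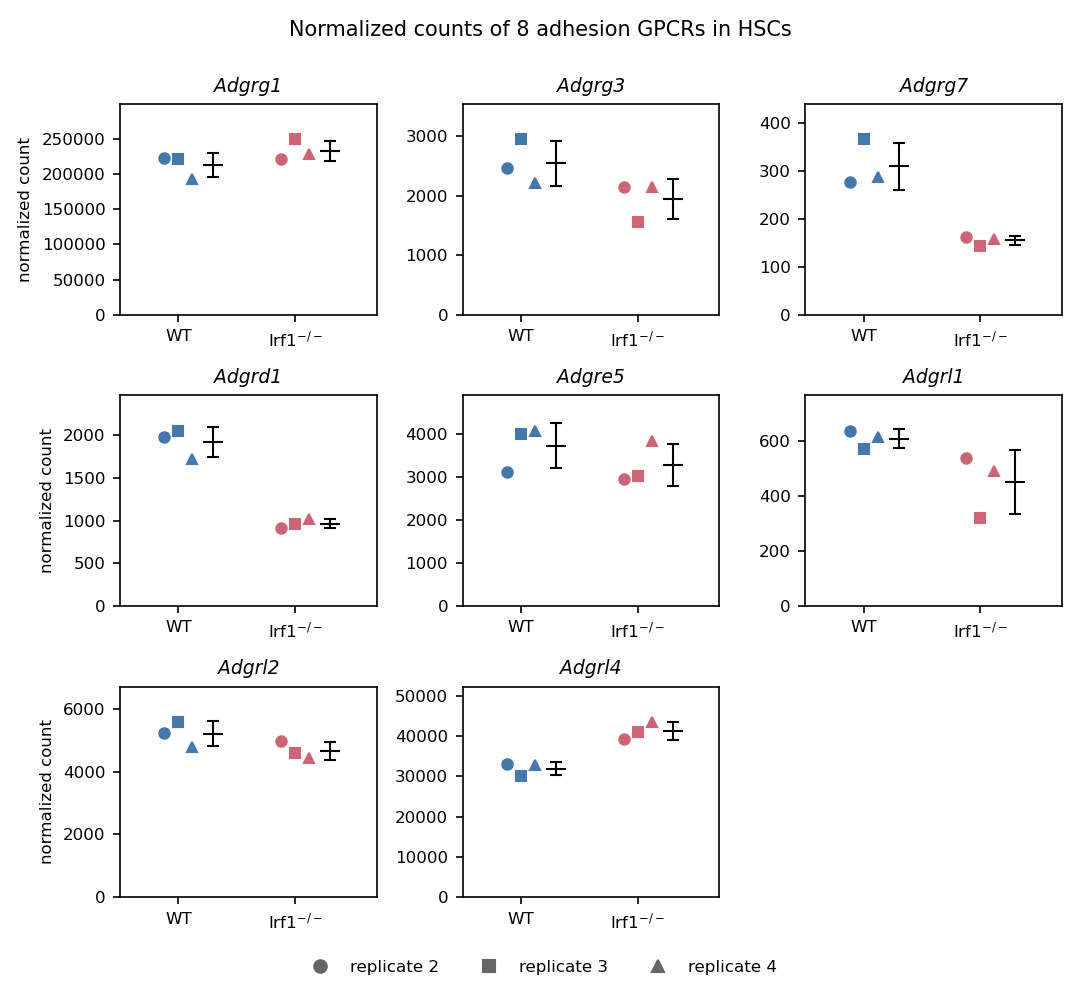
Normalized counts (linear axis from 0) of 8 of the receptors in the 3 WT (blue) and 3 *Irf1-/-* (red) HSC libraries, with 1 symbol per library and the mean and standard deviation (SD) in black. *Adgrd1* and *Adgrg7* were lower in every *Irf1-/-* library than in every WT library, *Adgrl4* was higher in every one, and *Adgrg1* overlapped between the groups.

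*Adgrg1* was the gene with the most reads in all 6 libraries, ahead of *Serinc3* in 5 of them and of *H2-K1* in WT replicate 3. It had 222655, 222089 and 193071 normalized counts in WT replicates 2, 3 and 4 and 222105, 249459 and 228816 in *Irf1-/-* replicates 2, 3 and 4. The lowest value was that of WT replicate 4 and the highest that of *Irf1-/-* replicate 3, and *Irf1-/-* replicate 2 lay between the WT libraries, so the groups overlapped. The means were 212605 ± 16919 in WT and 233460.1 ± 14256 in *Irf1-/-* HSCs (SD, n = 3 each). The log2 fold change was 0.14 (SE 0.11), not called, and 0.0 under quantile normalization, which gives the top gene of every library the same value. It was 0.07 without WT replicate 4, 0.09 without *Irf1-/-* replicate 3 and up to 0.17 without another library. As a share of all reads on genes, *Adgrg1* took 0.454%, 0.435% and 0.415% in WT and 0.483%, 0.504% and 0.488% in *Irf1-/-* HSCs. On this scale, which does not use the size factors, every *Irf1-/-* library lay above every WT library, so whether the groups overlapped depended on the scaling.

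Read totals favour long transcripts, so levels were compared between genes as reads per kilobase of exon, scaled to the reads on genes of each library (RPKM). On this scale *Adgrg1* reached 1303 ± 58.1 in WT and 1476 ± 32.7 in *Irf1-/-* HSCs (SD, n = 3 each), and it ranked between 3 and 6 among the 16381 tested genes with a known length. *Adgrl4* followed at 151 ± 14.0 RPKM in WT, and its libraries did not overlap those of *Adgrg1*. Next came *Adgrg3* at 21.3 ± 2.16, *Adgre5* at 20.3 ± 3.23 and *Adgrl2* at 12.6 ± 0.378 RPKM. *Adgrg3* and *Adgre5* did not differ beyond their spread, while *Adgrl2* lay below both in every WT library. *Adgrd1* had 4.71 ± 0.226, *Adgrg7* 2.35 ± 0.286 and *Adgrl1* 1.45 ± 0.130 RPKM, and these 3 kept this order in every WT library. With the longest transcript in place of all exons as the length, *Adgrd1* moved to 7.60, *Adgre5* to 25.4 and *Adgrl2* to 17.6 RPKM, and *Adgre5* then stood above *Adgrg3*.

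**Figure D2:**
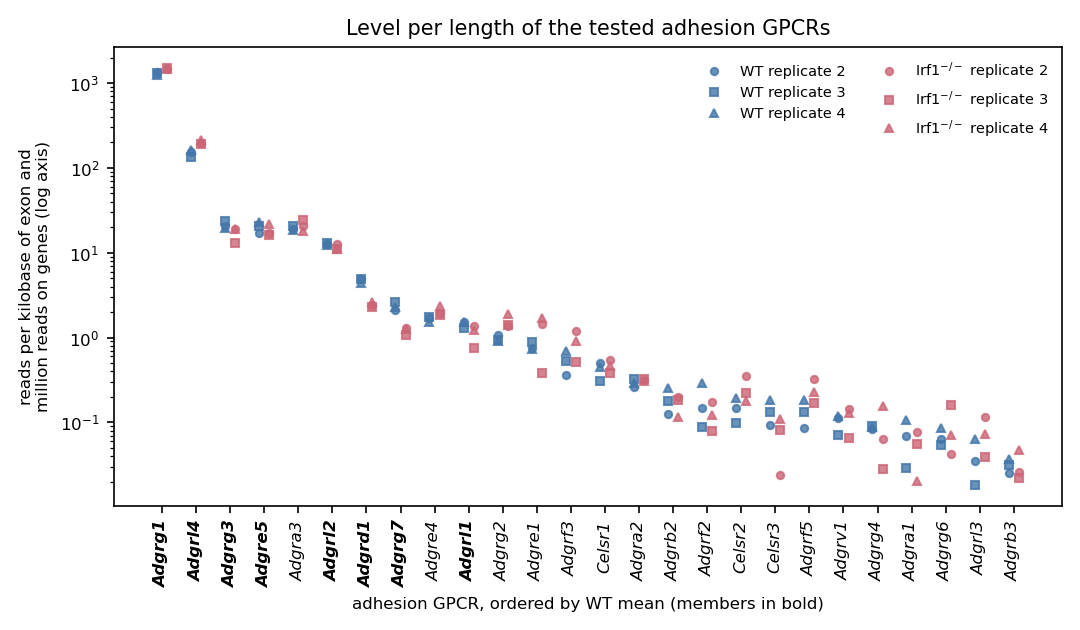
Levels per length (RPKM, log axis) of 26 adhesion GPCRs, ordered by their WT mean, with 1 symbol per library (WT blue, *Irf1-/-* red) and 8 of the members in bold. *Adgrg1* stood at 1303 and *Adgrl4* at 151 in WT, and the other members drawn lay between 1.45 and 21.3.

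All 30 adhesion GPCRs together took 0.560%, 0.536% and 0.527% of the reads on genes in WT and 0.608%, 0.623% and 0.620% in *Irf1-/-* HSCs. Most of these reads were of *Adgrg1*, whose groups overlapped in normalized counts but not as shares of the reads on genes. Of these family reads, *Adgrg1* alone held between 78.7% and 81.1%, and *Adgrg1* with *Adgrl4* between 92.0% and 94.3%. Per length, *Adgrg1* was 8.80, 9.65 and 7.67 times as abundant as *Adgrl4* in WT and 7.37, 7.92 and 6.84 times in *Irf1-/-* HSCs, and *Irf1-/-* replicate 3 lay above WT replicate 4.

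*Adgrg3* lies next to *Adgrg1* on chromosome 8 and was far below it in RPKM in every library. *Adgrg3* had 2471, 2951 and 2216 normalized counts in WT replicates 2, 3 and 4 and 2148, 1567 and 2149.9 in *Irf1-/-* replicates 2, 3 and 4. Every *Irf1-/-* library lay below every WT library, although *Irf1-/-* replicates 2 and 4 were close to WT replicate 4, the lowest of the WT group and the library with the most neutrophil marker RNA. The means were 2546 ± 373 in WT and 1955 ± 336 in *Irf1-/-* HSCs (SD, n = 3 each). The log2 fold change was −0.39 (SE 0.14), not called. It was −0.23 on leaving out *Irf1-/-* replicate 3 and −0.27 on leaving out WT replicate 3, and between −0.48 and −0.40 on leaving out any other library. For every 100 reads of *Adgrg1*, *Adgrg3* had 1.11, 1.33 and 1.15 in WT and 0.967, 0.628 and 0.940 in *Irf1-/-* HSCs, so the ratio was lower in each *Irf1-/-* library.

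*Adgrd1* (GPR133) raises cAMP through the stimulatory G protein and is known from glioblastoma. It had 1982, 2056 and 1724 normalized counts in WT replicates 2, 3 and 4 and 916, 955 and 1020.5 in *Irf1-/-* replicates 2, 3 and 4. The highest *Irf1-/-* library was well under the lowest WT library, and libraries of one genotype were close together. The means were 1921 ± 174 in WT and 964 ± 52.9 in *Irf1-/-* HSCs (SD, n = 3 each), or 50.2% of WT. The log2 fold change was −0.99 (SE 0.12), called lower except in limma without the trend (−0.99), and lay between −1.07 and −0.94 with 1 library left out. Since the gene was chosen for this difference, neither its call nor this range is evidence for it. In bulk samples, fewer cells that express a gene and less RNA per cell cannot be told apart.

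*Adgrg7* (GPR128) is known mainly from intestinal epithelium, and was low in HSCs. Its reads numbered 337, 325 and 267 in WT replicates 2, 3 and 4 and 153, 167 and 152 in *Irf1-/-* replicates 2, 3 and 4. In normalized counts these were 277, 366 and 287 in WT and 163, 144 and 158 in *Irf1-/-* HSCs. WT replicate 3 stood above the other WT libraries, the *Irf1-/-* libraries were close together, and the groups did not overlap. The means were 310.3 ± 48.7 and 155 ± 9.69 (SD, n = 3 each), with a log2 fold change of −0.99 (SE 0.22), called lower, a contrast on which this gene too was chosen. It was called without WT replicate 4 (−1.04) and not called without *Irf1-/-* replicate 2 (−1.02), *Irf1-/-* replicate 3 (−0.94), *Irf1-/-* replicate 4 (−1.0), WT replicate 2 (−1.06) or WT replicate 3 (−0.86), nor in limma without the trend (−0.99).

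*Adgrl4* was the only member whose normalized counts were higher in every *Irf1-/-* library, and on the RPKM scale this held for *Adgrl4* and for *Adgrg1*. It had 32972, 29988 and 32820.3 normalized counts in WT replicates 2, 3 and 4 and 39283, 41036 and 43589.9 in *Irf1-/-* replicates 2, 3 and 4. The spread within each genotype was small, with coefficients of variation of 5.26% and 5.24%. The means were 31927 ± 1681 in WT and 41303 ± 2166 in *Irf1-/-* HSCs (SD, n = 3 each). The log2 fold change was 0.37 (SE 0.089), under the threshold of 0.58 and not called, and it lay between 0.33 and 0.41 with 1 library left out. The summed count of the markers of endothelium, where *Adgrl4* is best known, was 36715, 35057 and 36720.0 in WT and 39911, 39577 and 41572 in *Irf1-/-* HSCs (exact two-sided permutation test, p = 0.1, the lowest that 3 against 3 allows). Of these 10 markers 0 were called by limma, edgeR or DESeq2 (over all tested genes, limma called 0.96% higher and 0.954% lower). An unadjusted p under 0.05 was found for 5 of them (16.5% of all tested genes). Of the markers, 1 was called higher when *Irf1-/-* replicate 2 or 4 or WT replicate 2, 3 or 4 was left out. In *Esam*, the most abundant, which HSCs also express, the *Irf1-/-* libraries (14489.6 to 16815) lay above the WT libraries (13134 to 14382). *Emcn* and *Egfl7* were also higher in 3 of 3 *Irf1-/-* libraries, at 0.58 (limma adjusted p = 0.0101) and 0.38 (limma adjusted p = 0.0323). *Vwf* went the other way, with 11529, 11219.9 and 11658 in WT and 11153, 9029 and 10525 in *Irf1-/-* HSCs (−0.17, SE 0.092, limma adjusted p = 0.406). The endothelial cadherin gene *Cdh5* had between 4.11 and 29.0 normalized counts in every library. The cells were sorted as HSCs, which the paper defines as lineage-negative, Sca1-positive, cKit-positive, CD150-positive and CD48-negative. Whether endothelial RNA passed that sort, and its part in the *Adgrl4* difference, was not tested.

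*Adgre5* binds CD55 and the surface protein Thy1 on neighbouring cells. It had 3112, 3985 and 4073 normalized counts in WT replicates 2, 3 and 4 and 2959, 3024 and 3829 in *Irf1-/-* replicates 2, 3 and 4, or 3723 ± 531 against 3271 ± 484 (SD, n = 3 each), with a log2 fold change of −0.19 (SE 0.13), not called. It was −0.31 without *Irf1-/-* replicate 4 or WT replicate 2 and −0.12 without *Irf1-/-* replicate 2 or WT replicate 4. WT replicate 2 was near *Irf1-/-* replicates 2 and 3, and *Irf1-/-* replicate 4 lay among the WT libraries, so the groups overlapped. *Adgre5* overlaps *Ddx39a*, an RNA helicase gene, in the annotation used for gene order. *Ddx39a* was lower in 3 of 3 *Irf1-/-* libraries (−0.44, SE 0.11, limma adjusted p = 0.0373) and under the fold threshold. How reads in the shared stretch were assigned, and whether strand was used, is not given in the sources used here, so the level of *Adgre5* is uncertain.

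The latrophilins *Adgrl1* and *Adgrl2* bind teneurins and FLRT proteins and are best known at synapses. *Adgrl2* had 5229, 5584 and 4792 normalized counts in WT replicates 2, 3 and 4 and 4972, 4585 and 4415 in *Irf1-/-* replicates 2, 3 and 4, with a log2 fold change of −0.16 (SE 0.093), not called. Of the *Irf1-/-* libraries, only replicate 2 lay inside the WT range, and the means were 5201 ± 397 in WT and 4657 ± 285 in *Irf1-/-* HSCs (SD, n = 3 each). *Adgrl1* had 639, 572 and 616 in WT replicates 2, 3 and 4 and 540.5, 321 and 492 in *Irf1-/-* replicates 2, 3 and 4. Every *Irf1-/-* library was below every WT library, and *Irf1-/-* replicate 3, which was also lowest for *Adgrg3*, stood furthest down. The means of *Adgrl1* were 609 ± 33.6 in WT and 451 ± 115 in *Irf1-/-* HSCs (SD, n = 3 each), and the log2 fold change was −0.47 (SE 0.19), not called. With 1 library left out it lay between −0.61 (without *Irf1-/-* replicate 2) and −0.24 (without *Irf1-/-* replicate 3).

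**Figure D3:**
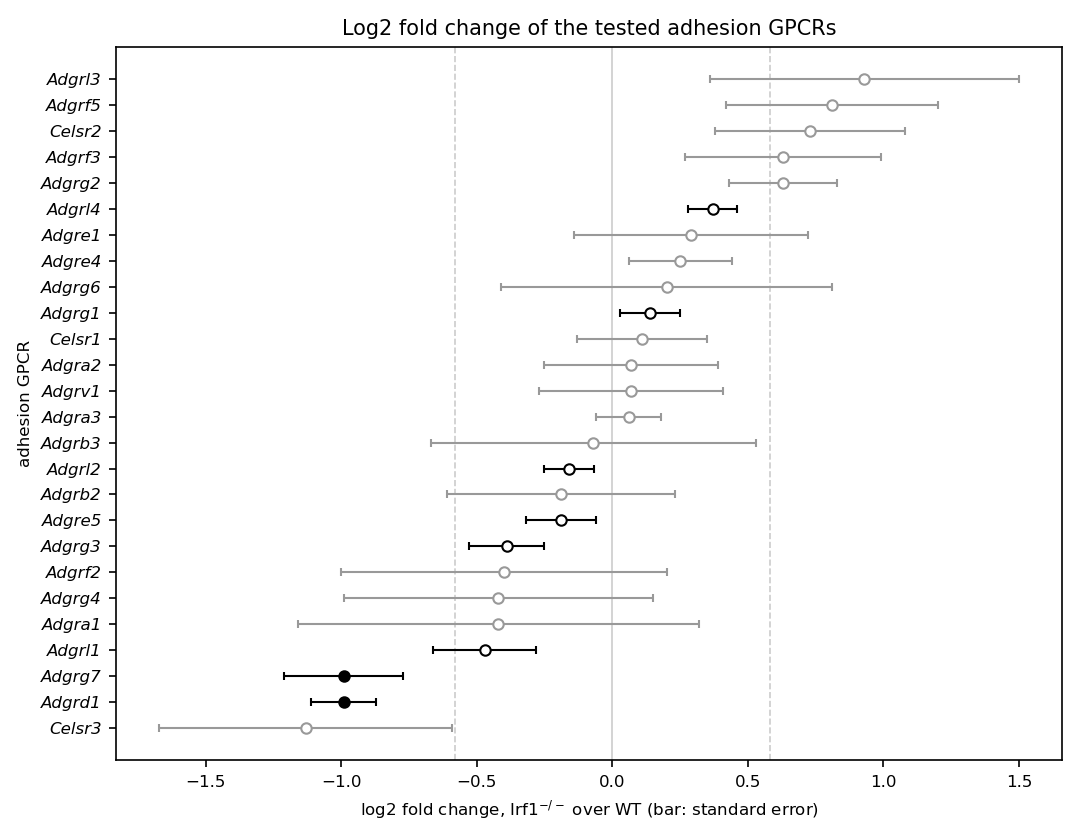
Log2 fold change (*Irf1-/-* over WT) with its SE as a bar for 26 adhesion GPCRs. The 8 members shown are drawn in black and the other 18 in gray, filled points are called, and dashed lines mark a log2 fold change of 0.58 in either direction. *Adgrd1* and *Adgrg7* (both −0.99) were the only filled points.

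The other 21 adhesion GPCRs of the list, which were not chosen on their values, were all in the table, and 18 passed the filter. Of these, 0 were called by limma or edgeR and 1 by DESeq2, and 1 had an unadjusted p under 0.05. Their median log2 fold change was 0.09, against −0.00 over all tested genes, and they ranged from −1.13 in *Celsr3* to 0.93 in *Adgrl3*. *Adgrg2*, the gene called by DESeq2, was the only one whose libraries did not overlap, with 276, 249 and 224 normalized counts in WT and 330.5, 371 and 469 in *Irf1-/-* HSCs. Its log2 fold change was 0.63 (SE 0.20, limma adjusted p = 0.117). Per length, *Adgra3* at 19.4 RPKM in WT was level with *Adgre5*, and *Adgre4* had 1.66, while the other 16 (*Adgra1*, *Adgra2*, *Adgrb2*, *Adgrb3*, *Celsr1*, *Celsr2*, *Celsr3*, *Adgre1*, *Adgrf2*, *Adgrf3*, *Adgrf5*, *Adgrg2*, *Adgrg4*, *Adgrg6*, *Adgrl3* and *Adgrv1*) lay under 1. *Adgrb1*, *Adgrf1* and *Adgrf4* did not reach the filter.

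Genes for ligands and surface partners of the members were taken as a list of 17, all of them tested. Of these, 1 was called higher (0.96% over all tested genes in limma) and 0 were called lower (0.954%) by limma, edgeR and DESeq2 alike. An unadjusted p under 0.05 was found for 6 of them (16.5% over all tested genes), and the groups did not overlap for 7, with 5 higher and 2 lower in *Irf1-/-* HSCs (19.9% over all tested genes). *Flrt3*, a leucine-rich repeat membrane protein bound by latrophilins, had 74.9, 95.8 and 103 normalized counts in WT and 334, 257 and 194 in *Irf1-/-* HSCs. It was higher in 3 of 3 *Irf1-/-* libraries, with a log2 fold change of 1.49 (SE 0.28, limma adjusted p = 0.0108). That call was lost without *Irf1-/-* replicate 2, the highest library (1.29, limma adjusted p = 0.0746). It was also lost in limma without the trend (1.49, adjusted p = 0.127). The adjusted p ranged from 1.4e-05 (DESeq2) to 0.127 over the alternatives. *Flrt2*, which latrophilins also bind, was low and went the other way, with 36.2, 36.1 and 25.8 in WT and 8.53, 0 and 14.5 in *Irf1-/-* HSCs (−2.66, SE 0.94, limma adjusted p = 0.156). *Tgm2* (transglutaminase 2), a ligand of *Adgrg1* and the most abundant gene of the list, had 26369, 30729.7 and 26255 in WT and 24053, 26029 and 28888 in *Irf1-/-* HSCs (−0.08 on the log2 scale, SE 0.099, limma adjusted p = 0.782). *Cd81*, a tetraspanin that binds *Adgrg1* protein, had 21789, 22573 and 19239 in WT and 20104, 23430.1 and 19388 in *Irf1-/-* HSCs (−0.02, SE 0.099, limma adjusted p = 0.964). Both genes overlapped between the groups. *Cd9*, another tetraspanin that binds *Adgrg1* protein, had 11512, 13280 and 11843 in WT and 9079, 8979 and 8535 in *Irf1-/-* HSCs (−0.46, SE 0.086, limma adjusted p = 0.0103), lower in 3 of 3 libraries but under the fold threshold. *Ptk7*, a partner of *Adgrd1*, had 1652, 1219 and 1371 in WT and 2124, 2032 and 1953 in *Irf1-/-* HSCs (0.54, SE 0.12, limma adjusted p = 0.0291), higher in 3 of 3 libraries, under the threshold and called only without WT replicate 2 (0.65). The median log2 fold change of the list was 0.26.

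Genes for signaling downstream of the receptors were taken as lists. Over all tested genes, limma called 0.96% higher and 0.954% lower. In lists this short, 0 called is near these shares and is not read as unchanged signaling. Of 13 G protein alpha subunit genes, 0 were called by limma, edgeR or DESeq2 and 0 had an unadjusted p under 0.05, and the median log2 fold change was 0.04. *Gnas*, the stimulatory subunit to which *Adgrd1* couples, had 38008, 40527 and 39245 normalized counts in WT and 34591, 37829 and 35461 in *Irf1-/-* HSCs (−0.13 on the log2 scale, SE 0.086, limma adjusted p = 0.533). The *Irf1-/-* libraries lay below the WT libraries by a small margin. *Gnai2*, the next most abundant, overlapped (0.06, SE 0.085, limma adjusted p = 0.818), and *Gna12* and *Gna13*, to which *Adgrg1* couples, had log2 fold changes of 0.02 (SE 0.095) and −0.14 (SE 0.099). Of 16 beta and gamma subunit genes, 14 were tested, 0 were called by limma, edgeR or DESeq2, 5 had an unadjusted p under 0.05 (16.5% over all tested genes) and the median was −0.04. *Gnb1* (−0.11) and *Gnb2* (−0.18) were the most abundant. Every *Irf1-/-* library lay above every WT library for 0 alpha genes and below for 1 (19.9% over all tested genes in either direction). For the beta and gamma genes these counts were 1 and 4.

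Of 12 genes from the RhoA axis, which *Adgrg1* is known to use, 0 were called by limma, edgeR or DESeq2, 2 had an unadjusted p under 0.05 and the median log2 fold change was 0.06. *Arhgef1*, the exchange factor that links the G12/13 subunits to RhoA, had 18948, 18767 and 17408 normalized counts in WT and 19015, 19689 and 17628 in *Irf1-/-* HSCs, with overlap between the groups (0.03, SE 0.085, limma adjusted p = 0.920). *Rhoa* itself had 11587, 12215 and 11128 in WT and 9319, 9895 and 10707 in *Irf1-/-* HSCs, and its *Irf1-/-* libraries were all below the WT libraries (−0.22, SE 0.087, limma adjusted p = 0.199). Of 17 genes from the cAMP axis used by *Adgrd1*, 0 were called by limma or edgeR and 1, *Prkar1b*, by DESeq2, 3 had an unadjusted p under 0.05, and the median was −0.01. *Prkar1b* (1.17, limma adjusted p = 0.134) was also called by limma with the replicate block (adjusted p = 0.0397), without *Irf1-/-* replicate 3 (0.0370) and without WT replicate 4 (0.0351). Its adjusted p over the alternatives lay between 0.0238 and 0.429. The groups of *Prkar1b* overlapped, with *Irf1-/-* replicate 3 (133) below WT replicate 4 (178). *Adcy7* was higher in every *Irf1-/-* library (0.35, limma adjusted p = 0.0478) but under the fold threshold. *Prkar1a* (−0.03, SE 0.096) and *Prkacb* (0.11, SE 0.079), subunits of protein kinase A, were the most abundant. Of 23 genes for receptor kinases, arrestins and RGS proteins, which switch receptors and G proteins off, 20 were tested, 0 were called by limma, edgeR or DESeq2, 2 had an unadjusted p under 0.05 and the median was −0.02. *Grk2* had 17644, 18058 and 18156 in WT and 20897, 19612 and 20318 in *Irf1-/-* HSCs (0.18, SE 0.080, limma adjusted p = 0.297), and *Rgs18* overlapped (−0.09, SE 0.083). Of 8 stem cell transcription factor genes known to act at the *Adgrg1* locus, 0 were called by limma, edgeR or DESeq2, 1 had an unadjusted p under 0.05 and the median was 0.03. *Lmo2* (−0.06, SE 0.096) and *Gata2* (0.13, SE 0.10) were the most abundant of them. In each of the RhoA and cAMP lists, every *Irf1-/-* library lay above every WT library for 4 genes and below for 1. These counts were 2 and 1 for the receptor kinases, arrestins and RGS proteins, and 1 and 0 for the transcription factors. Over all tested genes the share was 19.9%, in either direction.

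Markers of other cell types and states were summed per library to set their levels beside those of the receptors. The 16 genes of the cell cycle summed to 243727, 271664 and 195370.2 in WT replicates 2, 3 and 4 and to 179949, 186367 and 152820.0 in *Irf1-/-* replicates 2, 3 and 4, led by *Mcm6*, so that every *Irf1-/-* library was lower (exact two-sided permutation test, p = 0.1). All 16 had a log2 fold change below 0 and an unadjusted p under 0.05 (16.5% over all tested genes), and 11 did not overlap between the groups (19.9% over all tested genes). Of them *Aurkb*, *Mki67* and *Top2a* were called lower (0.954% over all tested genes, the share to set beside the lower calls of the next 2 lists too). This count was 0 without *Irf1-/-* replicate 4, WT replicate 2 or WT replicate 3, 2 without *Irf1-/-* replicate 2 and 8 without WT replicate 4. Megakaryocyte markers, led by *Itga2b*, summed to 58193, 74308 and 55906 in WT and 53155, 37897 and 51956 in *Irf1-/-* HSCs (exact p = 0.1). Of the 8 tested, 1 was called higher (*Selp*, 0.96% over all tested genes) and 3 were called lower (*Gp1ba*, *Pf4* and *Treml1*). An unadjusted p under 0.05 was found for 5 of the 8. The *Irf1-/-* libraries lay all above the WT libraries for 1 gene and all below for 4 (19.9% over all tested genes in either direction). The lower calls numbered 1 without WT replicate 3, 2 without *Irf1-/-* replicate 2 or 3 and 4 without WT replicate 4. Erythroid markers, led by *Epor*, summed to 6946, 6915 and 6993 in WT and 5198, 3351 and 4107 in *Irf1-/-* HSCs (exact p = 0.1), with 2 of the 6 tested called lower by limma (*Klf1* and *Car1*), only *Klf1* of them also by edgeR and DESeq2, and *Hba-a1*, *Hbb-bs* and *Hbb-bt*, which have near-identical copies, at 0 in all libraries. Of the 6 tested erythroid genes, 2 had an unadjusted p under 0.05 (16.5% over all tested genes). Every *Irf1-/-* library lay below every WT library for 2 of them (19.9% over all tested genes in either direction). Leaving out *Irf1-/-* replicate 3 took the lower calls to 0, and leaving out any library other than that or WT replicate 4 took them to 1. These 3 lists moved with genotype as *Adgrd1* and *Adgrg7* did, and their part in the receptor differences was not tested. Summed markers of neutrophils and other myeloid cells (10 genes, led by *Itgam*, exact p = 0.9), eosinophils (9, led by *Ccr3*, exact p = 0.9), macrophages (10, led by *Cd68*, exact p = 0.6), T and NK cells (11, led by *Nkg7*, with *Gzma* at 0 in all libraries, exact p = 0.5) and B cells (8, led by *Cd79b*, exact p = 0.5) overlapped between the genotypes. Of these lists 9, 4, 10, 7 and 7 genes were tested and 0 were called by limma, edgeR or DESeq2. The rest did not reach the filter and could not be called, among them the eosinophil gene *Epx* with 0, 0 and 1.08 normalized counts in WT and 8.53, 14.7 and 9.34 in *Irf1-/-* HSCs. Of the tested genes, 2 of the T and NK list had an unadjusted p under 0.05, while without WT replicate 4 the myeloid and the T and NK list each had 1 called higher. *Adgre1*, which encodes the macrophage antigen F4/80, had 119, 149 and 109.7 normalized counts in WT and 219, 62.2 and 259.5 in *Irf1-/-* HSCs, and its groups overlapped.

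The genes whose pattern over the 6 libraries was most like that of a receptor were ranked by the root mean square difference between centered log2 values, as a description. For *Adgrd1* they were *Psmb9* (0.078), *Psmb10* (0.096) and *Psmb8* (0.101), against a median of 0.561 over all tested genes. *Psmb9* had 9553, 10164 and 9865 normalized counts in WT and 4825, 4948 and 5257 in *Irf1-/-* HSCs, with a log2 fold change of −0.98 (SE 0.083). For *Adgrg7* they were *Tuba8* (0.065), *Gins1* (0.118) and the platelet glycoprotein gene *Gp1bb* (0.121), against a median of 0.567. *Tuba8*, a tubulin gene, had 5049, 6411 and 4609 in WT and 2899.6, 2364 and 2654 in *Irf1-/-* HSCs, with its highest library in WT replicate 3 and its lowest in *Irf1-/-* replicate 3 as for *Adgrg7*. For *Adgrg1* they were *Rab32* (0.022), *Rnf34* (0.022) and *Pml* (0.024), against a median of 0.230, and none of them was called. All these genes were picked for likeness over the same libraries, so small differences and shared directions follow from the choice.

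The 2 nearest tested genes on each side of each receptor gave 22 distinct genes outside the members. Of these, 0 were called by limma or edgeR and 1 (*Asf1b*) by DESeq2, 6 had an unadjusted p under 0.05 (16.5% over all tested genes), 1 was called lower without WT replicate 4, and 4 did not overlap between the groups (19.9% over all tested genes). Their log2 fold changes had a median of −0.02 and ranged from −0.59 in *Asf1b* to 0.77 in *Tmem45a2*. Beside *Adgrd1* lay *Ran*, *Stx2*, *Sfswap* and *Mmp17*, at −0.36, 0.08, 0.01 and −0.04. Beside *Adgrg7* lay *Abi3bp*, *Tfg*, *Tmem45a* and *Tmem45a2*, at −0.55, −0.08, −0.01 and 0.77. None of these 8 genes was called, and only *Ran* had its *Irf1-/-* libraries (20947, 25952 and 21982) all below its WT libraries (29130.3, 32439 and 26695). Next to *Adgrl4*, the interferon-induced *Ifi44* had 4841, 4094 and 3945 in WT and 3196, 3661 and 2950.3 in *Irf1-/-* HSCs (−0.39, SE 0.11, limma adjusted p = 0.0715). On the other side of *Adgrl4*, *4930555A03Rik* was at 0.32 (SE 0.15, limma adjusted p = 0.284), with overlap between the groups. The signs of these neighbors thus differed, and neither gene was called.

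Promoter windows of 300 bases around annotated start sites were available from RefSeq (GRCm38.p6) for 7 of the 9 receptors, as 8 windows, since *Adgrg1* had 2. *Adgrd1* and *Adgre5* had no window. The windows were searched on both strands for the letters GAAANNGAAA, as in interferon-response elements bound by IRF proteins (in 3.44% of the 32851 windows of all genes), AGATAA, as read by GATA factors (11.2%), CCGGAA, as read by ETS factors (14.9%), and TGTGGT, as read by RUNX factors (16.8%). Of the 8 windows, 1 held GAAANNGAAA, 1 AGATAA, 2 CCGGAA and 2 TGTGGT, with no overlap between matches of different motifs. A match is a description of the letters and not a bound site or a cause, and its absence says only that the letters are not in the window. The windows of *Adgrg3* and *Adgrl1*, which like *Adgrg7* were lower in every *Irf1-/-* library, held no GAAANNGAAA. The window of *Adgrg7*, shown because the gene was called lower, was the one that held GAAANNGAAA, read there on the opposite strand, and it also held AGATAA. Both are in capitals in the sequence at chr16:56795809-56796108 (minus strand):
Adgrg7: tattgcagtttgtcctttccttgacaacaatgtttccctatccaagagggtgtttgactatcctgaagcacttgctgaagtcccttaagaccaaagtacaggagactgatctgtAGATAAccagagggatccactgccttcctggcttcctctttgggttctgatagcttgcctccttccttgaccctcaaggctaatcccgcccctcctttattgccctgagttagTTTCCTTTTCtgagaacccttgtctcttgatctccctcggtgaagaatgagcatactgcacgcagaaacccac

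The window of *Adgrl4*, shown because the gene was higher in every *Irf1-/-* library, held CCGGAA (in capitals) and no other of these motifs, at chr3:151437632-151437931 (plus strand):
Adgrl4: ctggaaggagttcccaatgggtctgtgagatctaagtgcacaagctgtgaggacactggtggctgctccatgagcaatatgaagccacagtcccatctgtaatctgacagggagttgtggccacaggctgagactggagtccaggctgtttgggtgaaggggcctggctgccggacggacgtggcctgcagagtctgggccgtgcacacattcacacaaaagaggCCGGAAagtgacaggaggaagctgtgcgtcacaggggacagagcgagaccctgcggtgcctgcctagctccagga

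Both windows of *Adgrg1*, shown because the gene took the most reads of all, held none of the 4 motifs and had a GC content of 60.7%, at chr8:94976859-94977158 and chr8:94984149-94984448 (plus strand):
Adgrg1 first window: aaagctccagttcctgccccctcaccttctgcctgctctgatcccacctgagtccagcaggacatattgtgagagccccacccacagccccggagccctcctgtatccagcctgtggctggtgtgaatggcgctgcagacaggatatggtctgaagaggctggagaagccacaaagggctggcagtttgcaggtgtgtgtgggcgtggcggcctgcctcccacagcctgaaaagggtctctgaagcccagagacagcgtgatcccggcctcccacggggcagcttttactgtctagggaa
Adgrg1 second window: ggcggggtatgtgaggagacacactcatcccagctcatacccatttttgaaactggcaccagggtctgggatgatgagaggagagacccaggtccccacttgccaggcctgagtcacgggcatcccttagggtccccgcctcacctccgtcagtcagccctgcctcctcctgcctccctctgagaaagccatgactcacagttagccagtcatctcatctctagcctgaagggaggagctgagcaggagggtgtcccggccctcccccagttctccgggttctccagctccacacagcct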

How the data were processed

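Total RNA of HSCs sorted from 3 WT and 3 *Irf1-/-* mice was sequenced from SMART-Seq v4 complementary DNA. According to the methods and the submitters' processing notes, reads were trimmed with Trim Galore, aligned to mm39 with HISAT2, counted per gene with HTSeq-count and normalized with DESeq2. Versions, annotation and strand setting are not given in the sources used here. The deposited signal values are gene counts that the authors divided by a size factor per library. The worth of 1 read was found from the low values of each library, and 100% of the values were then whole numbers within 0.1, giving recovered reads. The main test was limma (3.58.1, R 4.3.3) with a trend for intensity on log2 of the normalized count plus 1, for genes with a mean of at least 10, with Benjamini-Hochberg adjustment over all 17404. Fold changes are on that scale. On recovered reads, edgeR (4.0.16) called 165 genes higher and 162 lower, and DESeq2 (1.42.0) called 289 and 208. Other alternatives were the pseudocount, the filter, the trend, the scaling, a block for the replicate number, the threshold, and fits without each library. Exon lengths came from GENCODE vM1 (NCBIM37), in which 94.1% of tested genes and all 9 receptors were found by symbol or synonym. Names, gene order and promoter windows came from RefSeq (GRCm38.p6), and neither of these builds is the one used for alignment. A count of 0 allows up to 3 reads, which is 2.469 to 3.381 normalized counts in WT libraries. Reads carry no molecular identifiers, so this covers counting error only. The fit was tested on simulated data. The named genes were the receptors, the called and the 2 most abundant genes of each list, the 3 most alike genes, the 2 nearest neighbors on each side, *Irf1*, and for marker lists the most abundant gene and those at 0. *Serinc3*, *H2-K1*, *Ngp*, *Cdh5*, *Emcn*, *Egfl7*, *Vwf*, *Cd9*, *Ptk7*, *Flrt2*, *Gna12*, *Gna13*, *Prkar1b*, *Adcy7*, *Ly6a*, *Procr*, *Cd48* and the called marker genes were named after their values were seen. 1 of the 9 receptors is counted in the totals and is not reported here. Members and lists were chosen with earlier results of these data known. Python 3.11.15 and matplotlib 3.10.9 were used for tables and plots.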

Additional observations from a re-analysis of the deposited data

How the results depend on the processing

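Over 16 alternatives the log2 fold change of *Adgrd1* lay between −1.07 and −0.94 and that of *Adgrg7* between −1.07 and −0.86, as a description, since both were chosen on this contrast. Without the trend in limma, both calls were lost (−0.99 for each gene, 0 receptors called lower), and 7 genes were called higher and 33 lower. With 1 library left out, 1 to 2 receptors were called lower, the fold of *Adgrg7* ranged from −1.06 to −0.86 where its call was lost, and between 83 and 304 genes were called higher and between 105 and 265 lower. The highest counts came without WT replicate 4, the library with the most myeloid marker RNA. With the adjusted p alone as the threshold, 301 genes were called higher and 260 lower, among them 1 receptor higher (*Adgrl4*). DESeq2 on recovered reads called 289 higher and 208 lower. Quantile normalization moved the log2 fold change of *Adgrg1* from 0.14 to 0.0 by construction, because the most abundant gene of every library is given the same value. With the replicate number as a block (replicate block), 219 genes were called higher and 196 lower, and *Adgrd1* and *Adgrg7* kept their calls at −0.99. No label says that the numbers pair the samples, and the deviations of same-numbered libraries correlated at −0.09, 0.25 and 0.15. These correlations cannot decide it, so whether same-numbered libraries were paired is not known. For the trend and the threshold, the cause was not tested. Depth limits what low genes can show: *Adgrg7* had 152 to 337 reads per library.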
